A study of Mus musculus with 4 samples.

Results

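The fatty acid elongases and desaturases studied here are 10 genes: the elongases Elovl1, Elovl2, Elovl3, Elovl5 and Elovl6, the front-end desaturases Fads1, Fads2 and Fads3, and the stearoyl-CoA desaturases Scd1 and Scd2. They were taken by symbol from a table of 21827 gene entries, and all 10 were found, each with a level in both sexes. The samples were livers of untreated mice of the outbred CD-1 stock, aged 8 weeks, of which 12 were male and 12 female. Total RNA of 6 livers was combined into each pool, with 2 pools per sex, and poly-A-enriched RNA of the 4 pools was sequenced with a strand-specific preparation. The comparison addresses how expression in male and female liver differs. The deposited table gives 1 level per gene and sex, as log2 RPKM (reads per kilobase of transcript, scaled to sequencing depth), with the pools of a sex combined, so no error between pools or mice can be given for a level. A gene was called when the authors' adjusted p for the sex difference lay under 0.05.

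Long-chain fatty acids are remodelled in the endoplasmic reticulum by elongases, which catalyse the condensation of an acyl-CoA with malonyl-CoA and so start each round of chain lengthening, and by desaturases, which insert double bonds. Elovl6 extends palmitate, Elovl1 and Elovl3 make saturated and monounsaturated very long chains, and Elovl2 and Elovl5 extend polyunsaturated chains. Scd1 and Scd2 make oleate and palmitoleate from saturated precursors, while Fads1 and Fads2 act on dietary linoleate and linolenate and, with Elovl5 and Elovl2, give arachidonate and docosahexaenoate. In liver these enzymes feed triglycerides, phospholipids and secreted lipoproteins, and several of their genes are known targets of the lipogenic factor SREBP-1c.

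Members of the desaturase families lie side by side in the genome, and 6 of the 10 genes are on chromosome 19. In the table's mm9 coordinates, Fads3 (19, 10116038 to 10134161, plus strand), Fads2 (19, 10138654 to 10175993, minus strand) and Fads1 (19, 10257378 to 10271362, plus strand) form a cluster with no other listed gene between them. Scd2 (19, 44368166 to 44381352, plus strand) and Scd1 (19, 44468940 to 44482199, minus strand) belong to a second cluster, which also holds Scd3 (from 44277778) and Scd4 (from 44407816). Elovl3 (19, 46206389 to 46210184, plus strand) lies further along the same chromosome. The other elongases are dispersed: Elovl1 on chromosome 4 (118100698 to 118105521), Elovl2 on chromosome 13 (41277870 to 41315774), Elovl5 on chromosome 9 (77765172 to 77832326) and Elovl6 on chromosome 3 (129235304 to 129341411).

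Promoter sequences from RefSeq (GRCm38.p6, a later build than the mm9 of the table) were matched by symbol for 6 of the 10 genes. Elovl3, Fads1, Scd1 and Scd2 had no entry. The 250 bases before the transcript start are printed for Elovl5, the most abundant of the genes with an entry (chr9:77917115-77917364, plus strand), and for Scd3, the neighbour of Scd1 and Scd2 that was called in the sex comparison (chr19:44203038-44203287, plus strand). Capitals mark an E-box (CACGTG) and the CCAAT box on the reverse strand (ATTGG).

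Elovl5: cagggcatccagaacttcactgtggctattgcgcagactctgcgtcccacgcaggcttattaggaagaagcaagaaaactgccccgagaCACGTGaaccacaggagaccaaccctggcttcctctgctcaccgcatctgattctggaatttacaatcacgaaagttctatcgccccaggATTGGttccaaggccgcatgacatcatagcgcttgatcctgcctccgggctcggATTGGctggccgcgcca
Scd3: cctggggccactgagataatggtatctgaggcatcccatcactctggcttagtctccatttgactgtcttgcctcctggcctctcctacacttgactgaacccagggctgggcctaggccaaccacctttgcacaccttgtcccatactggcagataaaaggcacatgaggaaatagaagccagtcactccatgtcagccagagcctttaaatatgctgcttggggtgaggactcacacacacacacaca

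An E-box, the site bound by carbohydrate-response and clock factors among others, was found in the window of Elovl5 alone among these 6 genes, and in 7.15% of all 32851 promoters of the same length (250 bases before to 50 after the start, both strands). The CCAAT box, the site of the general factor NF-Y, was found in Elovl1, Elovl5 and Fads3 and in 37.4% of all promoters; CCAAT and CACGTG do not overlap. The letters of a sterol regulatory element (TCACNCCAC), of a STAT5 site (TTCNNNGAA), and of the nuclear receptor half-site AGGTCA repeated directly with a spacer of 4 bases or of 1 base were in none of the windows of these 6 genes or of Scd3 and Scd4. They were in 1.24%, 8.30%, 0.0152% and 0.0396% of all promoters.

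Scd1, the main stearoyl-CoA desaturase of liver, was the most abundant of the 10 genes in both sexes, with a log2 RPKM of 10.47 in male and 9.72 in female liver. Among all genes of the table it ranked 33rd by level in male and 65th in female liver. The next levels belonged to the elongases of polyunsaturated fatty acids: Elovl5 stood at 8.45 in male and 8.54 in female liver, and Elovl2 at 7.75 and 7.72. Fads1 stood at 7.34 in male liver and at 7.72, level with Elovl2, in female liver, and Fads2 at 6.88 and 6.70. On this per-length scale Fads1 was 1.38 times as abundant as Fads2 in male and 2.02 times as abundant in female liver. The 5 genes of polyunsaturated fatty acid synthesis or of oleate synthesis named so far therefore lay in the upper part of the range in both sexes.

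The remaining genes were lower. Elovl6 had a log2 RPKM of 4.45 in male and 4.39 in female liver, and Elovl1 4.39 in both, so that these levels nearly coincide. Scd2, which is best known from brain, stood at 1.48 and 1.10, and its RPKM was 0.196% of that of Scd1 in male and 0.254% in female liver. Fads3, a relative of Fads1 and Fads2, had the lowest level, 0.19 in male and -0.30 in female liver, and was the only one of the 10 without the authors' flag for liver expression, which asks for a log2 RPKM of 1 or more in a sex. Elovl3 alone changed its place by more than 2 positions: it held position 5 with a log2 RPKM of 7.22 in male liver, above Fads2, and position 8 with 1.46 in female liver, between Elovl6 and Scd2. Whether neighbours in this order differ beyond the spread between pools cannot be tested, since the pools are not separate.

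**Figure D1:**
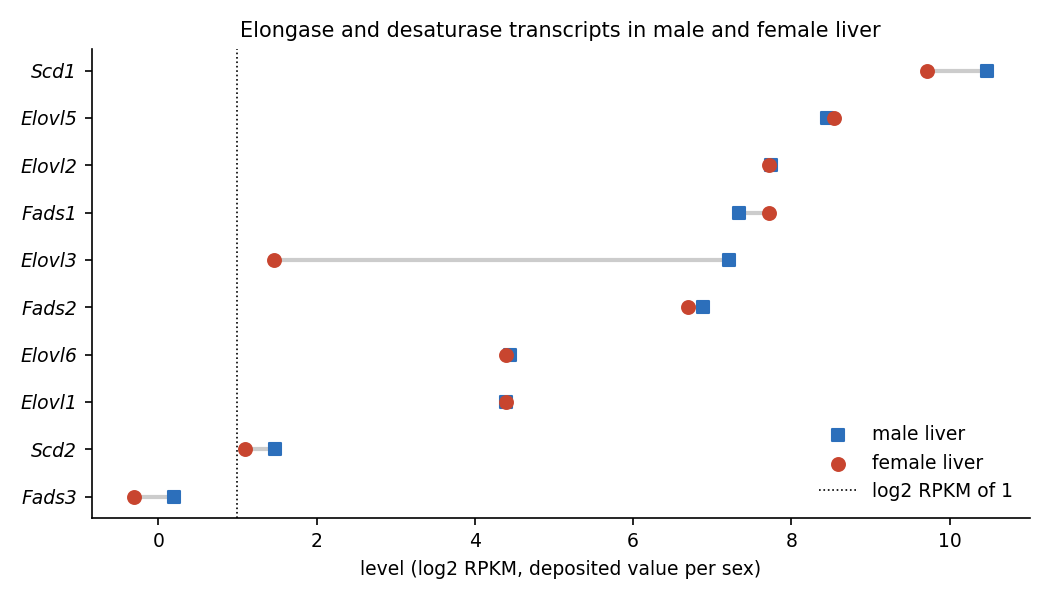
Levels of the 10 genes as log2 RPKM on the horizontal axis, with a square for male and a circle for female liver joined by a grey line, ordered by the higher of both levels. The dotted line marks a log2 RPKM of 1. Elovl3 spans from 1.46 to 7.22, and the other 9 genes have both values close together.

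Of the 10 genes, 2 were called higher in male liver (Elovl3 and Scd1) and 1 higher in female liver (Fads1) at an adjusted p under 0.05 in the authors' deposited table. Among all 13762 compared genes, 7.21% were called toward male and 10.2% toward female liver, and with 10 genes these counts are a description only. Elovl3 and Scd1 were also under an adjusted p of 0.01, where calls made up 4.16% of the compared genes toward male and 6.05% toward female liver; Fads1 was not, and the authors' own class for it, set at that threshold, is sex-independent. The median normalized log2 ratio, male over female, was 0.10 for the 10 genes and -0.02 for all compared genes. By sign, 6 of the 10 ratios were above 0, as were 6481 of the 13762. The group did not move as one: a single gene differed by a large factor, 2 differed by modest factors in opposite directions, and 7 were not called.

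Elovl3, an elongase known from brown fat, skin and male liver, had an RPKM of 148.7 in male and 2.75 in female liver. The male level is above the female level by 5.76 on the log2 scale. In the authors' deposited table the normalized difference was 57.5-fold (adjusted p = 2.78e-115). Only 12 of the 13762 compared genes had a larger ratio toward male liver, and 36 had a larger ratio in either direction. The female level rests on about 75 implied reads against 3143 in male liver, and the 95% counting interval of the reads scaled by implied depth (exact, Clopper-Pearson) runs from 43.6-fold to 69.9-fold. Elovl3 was thus low in female liver but above the level of a few reads.

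The 3 compared genes closest to Elovl3 over both log2 RPKM values, by Euclidean distance over these 2 values, were Mup17 (distance 1.22), Cyp4a12a (1.44) and Mup21 (1.56). Mup17 and Mup21 encode major urinary proteins and Cyp4a12a a fatty acid omega-hydroxylase. Their levels were 6.15 and 2.05 for Mup17, 7.20 and 0.01 for Cyp4a12a and 8.72 and 1.86 for Mup21, each in male and female liver in that order. With 2 values per gene, this likeness describes level and ratio and nothing more, and reads of near-identical Mup and Cyp4a12 copies may have been split between them.

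Scd1 had an RPKM of 1422 in male and 843 in female liver. The normalized difference in the authors' deposited table was 1.54-fold toward male liver (adjusted p = 0.000788), and the plain difference of the log2 RPKM values, 0.76, corresponds to 1.69-fold. The plain and normalized log2 values differ by 0.13 for Scd1 and Elovl6, and by at most 0.09 for the other 8 genes; the cause was not tested. With about 77258 and 59942 implied reads, counting error was small (1.67-fold to 1.71-fold), and this interval, whose reads are scaled by implied depth, does not hold the authors' normalized value. Ratios of this size were more common than that of Elovl3, since 23.2% of all compared genes had a larger one in either direction.

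Fads1 was the single gene of the group called higher in female liver. Its RPKM was 162.5 in male and 210.1 in female liver, and the authors' deposited table gives a 1.35-fold difference (adjusted p = 0.0205). A larger ratio in either direction was found for 33.0% of the compared genes. Implied reads were 6318 in male and 10700 in female liver, and counting alone allows a male level of 0.749 to 0.798 of the female level. This interval, whose reads are scaled by implied depth, does not hold the authors' normalized ratio of 0.740. Its partner in the same pathway, Fads2, pointed the other way, with an RPKM of 117.9 in male and 103.8 in female liver, and was not called (1.11-fold, adjusted p = 0.442 in the authors' deposited table).

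None of the 4 other elongases was called, and each had close levels in both sexes. Elovl5 had an RPKM of 348.7 in male and 370.9 in female liver, a 1.11-fold difference toward female liver (adjusted p = 0.427, authors' deposited table). Elovl2 stood at 214.5 and 210.1 (1.04-fold toward male, adjusted p = 0.763 in the same authors' deposited table). For Elovl1 the values were 20.95 and 21.02, and for Elovl6 21.84 and 20.97, with adjusted p-values of 0.855 and 0.689 in the authors' deposited table. The sign for Elovl6 depends on the scale, with a normalized log2 ratio of -0.07 and a plain difference of 0.06. Missing the threshold does not show that the sexes are equal; counting alone allows a ratio of male over female reads between 0.853 and 1.16 for Elovl1, 0.917 and 0.964 for Elovl5, and 0.971 and 1.12 for Elovl6. These reads are scaled by implied depth, and the intervals of Elovl5 and Elovl6 do not hold the authors' normalized ratios, 0.902 and 0.951. No transcript length was matched to the Elovl2 entry, so no interval is given for it.

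Scd2 and Fads3, the least abundant desaturases of the group, were not called either. Scd2 had an RPKM of 2.79 in male and 2.14 in female liver (1.27-fold, adjusted p = 0.188 in the authors' deposited table), from about 170 and 171 implied reads, and counting alone allows a male over female ratio of 1.05 to 1.62. Fads3 had an RPKM of 1.14 and 0.810 (1.37-fold, adjusted p = 0.321 in the authors' deposited table), from about 46 and 43 reads, with an interval from 0.904 to 2.17. Both normalized log2 ratios, 0.34 for Scd2 and 0.46 for Fads3, were positive. The level, ratio and interval of Scd2 are uncertain, since its transcript shares stretches of sequence with the far more abundant Scd1, as given below.

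**Figure D2:**
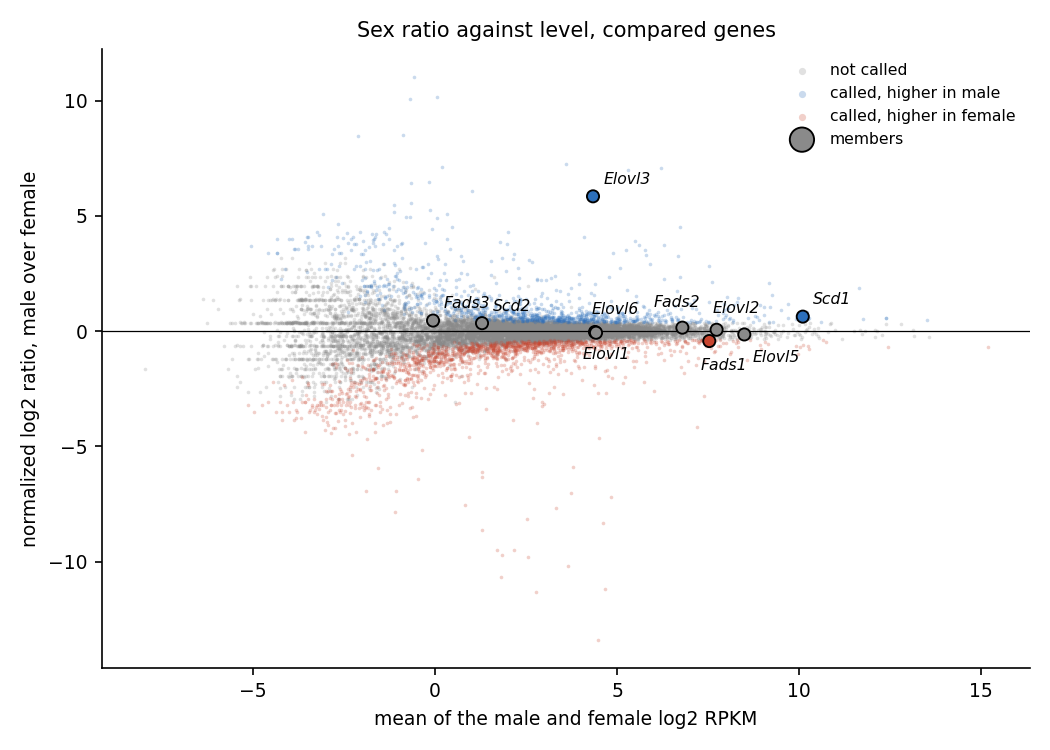
Normalized log2 ratio between male and female liver (positive where male is higher) on the vertical axis, against the mean of both log2 RPKM values (horizontal) for the compared genes with a level, as small points coloured by call, with the 10 genes as outlined circles. Elovl3 lies at 5.85, Scd1 at 0.63 and Fads1 at -0.43, and the other 7 genes lie within the grey band around 0.

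Because RPKM is scaled by length, levels can be summed over the listed genes of a class to describe their make-up, without an error. The 5 elongases summed to an RPKM of 755 in male and 626 in female liver. Without Elovl3 the sums were 606 and 623. Elovl3 made up 19.7% of the elongase sum in male and 0.439% in female liver, while Elovl5 made up 46.2% and 59.3% and Elovl2 28.4% and 33.6%. In male liver, Elovl3 was 6.81 times as abundant as Elovl6 and 7.10 times as abundant as Elovl1. In female liver, Elovl6 and Elovl1 were 7.64 and 7.66 times as abundant as Elovl3. The higher elongase sum of male liver therefore corresponds to Elovl3 and not to the other 4 genes.

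The 5 desaturases of the group summed to an RPKM of 1707 in male and 1160 in female liver, and without Scd1 to 284 and 317. Desaturases outside the group are not in these sums and shares. Among them, Fads6 had an RPKM of 120.0 in male and 82.0 in female liver, so the figures depend on the choice of genes. Scd1 made up 83.3% of the sum in male and 72.7% in female liver. The share of Fads1 was 9.52% and 18.1%, that of Fads2 6.91% and 8.95%, that of Scd2 0.163% and 0.185%, and that of Fads3 0.0669% and 0.0698%. Among the 3 front-end desaturases alone, Fads1 held 57.7% in male and 66.8% in female liver, and Fads2 41.9% and 33.0%. The make-up of both sets of 5 genes differed in the same samples by a few genes each, Elovl3 on one side and Scd1 and Fads1 on the other.

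**Figure D3:**
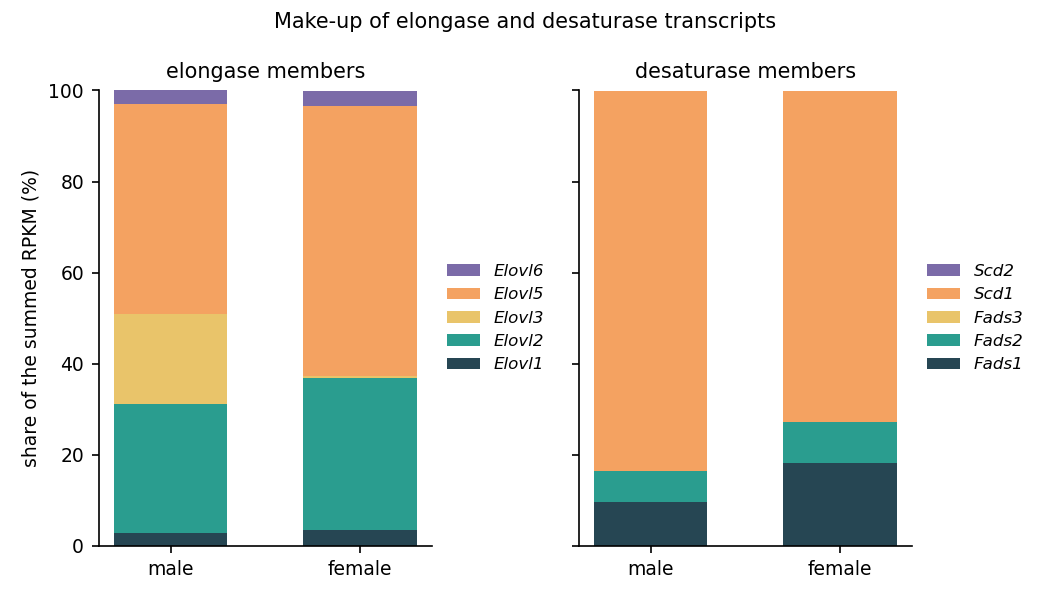
Share of the summed RPKM, in percent, held by each of the 5 elongases (left) and 5 desaturases (right) in male and female liver. Elovl3 takes 19.7% of the elongase bar in male and is barely visible at 0.439% in female liver, and Scd1 takes 83.3% and 72.7% of the desaturase bars.

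The genes next to Elovl3 had far smaller ratios. Nolc1 upstream (46.4 kb away) had log2 RPKM values of 3.49 in male and 3.21 in female liver (1.19-fold, adjusted p = 0.231 in the authors' deposited table). Gbf1 downstream (16.9 kb away) had 3.70 and 3.30 (1.27-fold, adjusted p = 0.0824 in the authors' deposited table). Pprc1, 59.0 kb upstream, was called in the opposite direction, 1.48-fold higher in female liver (adjusted p = 0.0368, authors' deposited table). Pitx3, on the opposite strand, overlaps the end of Elovl3 by 9 bases and had the floor value, which the table gives to a gene without reads, in male and female liver alike. Elovl1 likewise overlaps Cdc20 on the opposite strand by 16 bases; Cdc20 had log2 RPKM values of -2.01 and -0.91 and was not called. No source used here says whether reads were counted by strand, so reads in these overlaps cannot be told apart.

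In the Scd cluster, Scd1 and Scd3 were both called higher in male liver, while Scd2 and Scd4, which lie between them, were not. The normalized log2 ratios of Scd1, Scd2, Scd3 and Scd4 were 0.626, 0.342, 0.935 and 1.944, all positive. Differences between these ratios were not tested. Scd3, a stearoyl-CoA desaturase best known from sebaceous glands, had log2 RPKM values of 0.78 and -0.22 (1.91-fold, adjusted p = 0.0114 in the authors' deposited table). Its RPKM was 0.121% of that of Scd1 in male and 0.102% in female liver. Of the 36-base windows of the Scd3 transcript, 7.07% also occur in Scd1 and 6.46% in Scd2, and 5.09% of the Scd1 windows occur in Scd3. A small part of the Scd1 reads assigned to Scd3 could therefore amount to its whole level, so the value of Scd3 is uncertain; whether such reads were present was not tested. Scd4, the form known from heart, had -3.11 and -4.50 and was not called. Outside the stearoyl-CoA desaturases, the transcripts compared shared windows in 2 pairs, Fads2 with Fads3 (19 windows) and Elovl6 with Scd3 (2 windows).

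Of the Fads genes, Fads1 alone was called, and differences between the sex ratios of these genes were not tested. Fads3 and Fads2 are 4.49 kb apart and were not called, and Fads1, 81.4 kb from Fads2, was called higher in female liver. Rab3il1, 6.09 kb from Fads3, was higher in female liver as well (1.63-fold, adjusted p = 0.0449 in the authors' deposited table). Fen1, 2.27 kb beyond Fads1, had log2 RPKM values of 2.09 and 1.74 and was not called. The nearest 2 entries on each side of the 10 genes gave 29 distinct neighbours outside the group. Of these, 17 were compared, 1 was called higher in male (Scd3) and 2 higher in female liver (Pprc1 and Rab3il1). Among all compared genes, 7.21% were called toward male and 10.2% toward female liver.

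**Figure D4:**
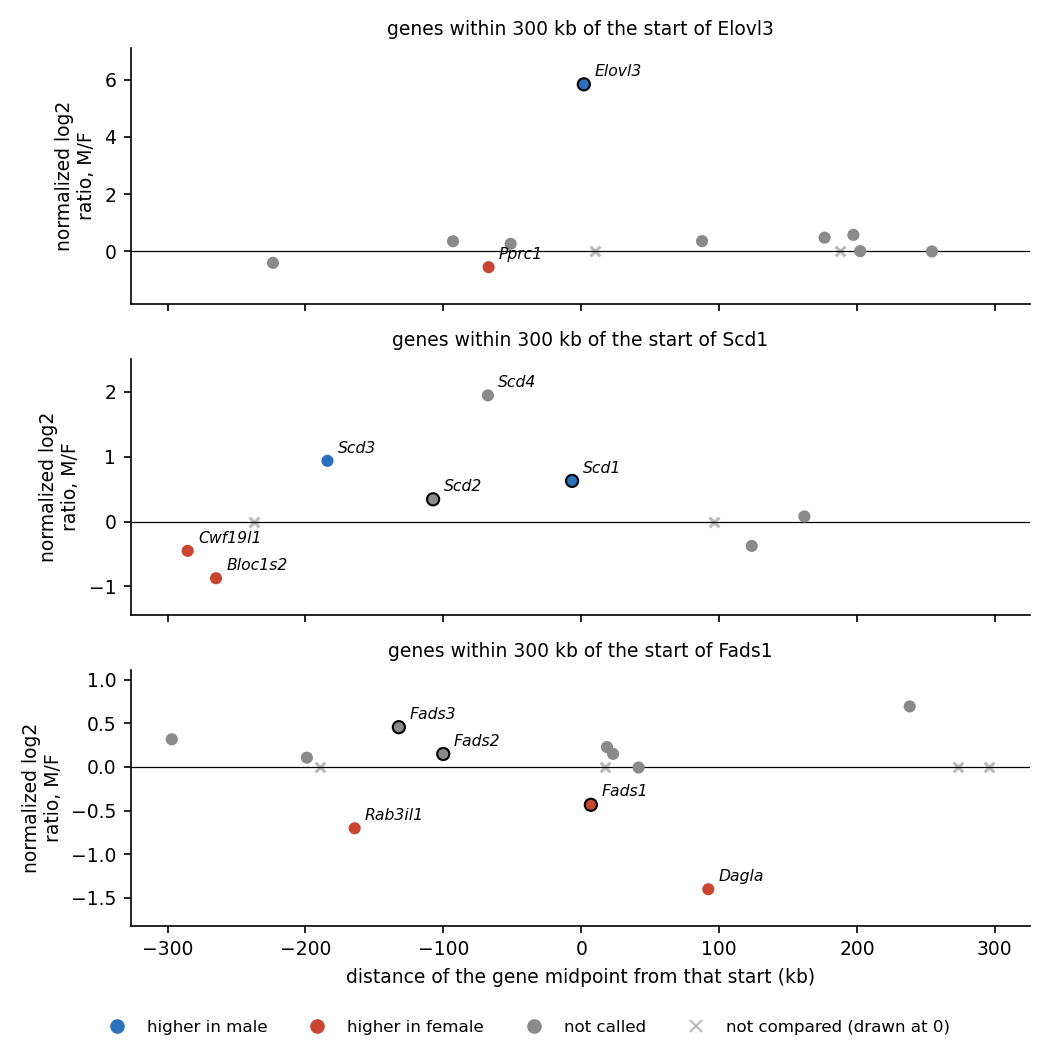
Normalized log2 ratio between male and female liver (positive where male is higher) for genes within 300 kb of the starts of Elovl3, Scd1 and Fads1, against the distance of the gene's midpoint in kb; outlined points are members of the group, colours give the call, and crosses are genes that were not compared, drawn at 0. Elovl3 stands at 5.85 with every other point of its panel between -1 and 1. Scd1, Scd2, Scd3 and Scd4 lie on the male side of their panel, of which Scd1 and Scd3 were called. Cwf19l1 and Bloc1s2 in the same panel were called higher in female liver. Fads1 lies on the female side of its panel. Of the 11 compared genes there, 3 were called higher in female liver (Dagla at -1.40, Rab3il1 at -0.70 and Fads1) and 0 in male liver.

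The other enzymes and regulators of the pathway were examined in 8 lists with 71 genes, of which 67 were found, 10 of them under an older symbol. Acsl3, Cers1, Mbtps2 and Srebf2 were not analysed here. Of the 61 compared genes, 14 were called toward male and 4 toward female liver, beside 7.21% and 10.2% of all compared genes, and the median normalized log2 ratio was 0.08. At an adjusted p under 0.01 the counts were 4 and 3. Of the 14 calls toward male liver, 13 were under 2-fold. The shares of 7.21% and 10.2% also stand beside the count of each single list below. With 5 to 13 compared genes per list, these counts are a description only.

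The enzymes that complete each elongation cycle after condensation showed 1 call among 6 compared genes, toward female liver. Hacd1, a 3-hydroxyacyl-CoA dehydratase listed as Ptpla, had log2 RPKM values of 2.53 in male and 3.41 in female liver (1.86-fold, adjusted p = 0.00392 in the authors' deposited table). The ketoacyl-CoA reductase Hsd17b12 (6.93 and 6.62) and the dehydratase Hacd3 (6.23 and 6.08) were the most abundant of the list by the mean of both sexes and were not called. Electron supply to the desaturases, through cytochrome b5 and its reductase, held no call among its 5 compared genes, although Cyb5r3 came close (1.29-fold toward male, adjusted p = 0.0552 in the authors' deposited table). Cyb5a, the microsomal cytochrome b5 listed as Cyb5, had log2 RPKM values of 9.97 and 10.08.

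Among further desaturase and elongase genes, 2 of 5 compared were called, both toward male liver. Scd3 is described above, and Fads6, a member of the fatty acid desaturase family, stood at 6.91 in male and 6.36 in female liver (1.40-fold, adjusted p = 0.0121 in the authors' deposited table), a level like that of Fads2. Elovl4, which makes the longest chains in retina and skin, had the floor value in each sex.

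Supply of malonyl-CoA, palmitate and NADPH held 2 calls among 8 compared genes, both toward male liver. Me1, malic enzyme, which yields NADPH, had log2 RPKM values of 5.16 and 4.29 (1.68-fold, adjusted p = 0.000171 in the authors' deposited table), and Acss2, which activates acetate, had 6.04 and 5.42 (1.36-fold, adjusted p = 0.0233 in the authors' deposited table). The list's median normalized log2 ratio was 0.13 and its median plain difference 0.26. Fatty acid activation had 3 calls toward male and 1 toward female liver among 9. The acyl-CoA synthetase genes Acsl1, Slc27a2 and Acsl4 exceeded their female levels by 1.41-fold, 1.39-fold and 1.35-fold in the authors' deposited table (adjusted p = 0.00796, 0.0106 and 0.0256). Slc27a3 was higher in female liver, but at the low log2 RPKM values of -3.22 in male and -1.29 in female liver, and its adjusted p in the authors' deposited table, 0.026, is the value given there to every gene at the floor in both sexes.

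Among regulators of these genes, 2 of 13 compared were called, both higher in male liver. Thrsp (Spot 14), a lipogenic nuclear protein, had log2 RPKM values of 9.24 and 8.45 (1.52-fold, adjusted p = 0.00133 in the authors' deposited table). Ppara, the fatty acid receptor, had 5.58 and 5.11 (1.39-fold, adjusted p = 0.0141 in the authors' deposited table). The other 11, among them the genes for SREBP-1, ChREBP and the liver X receptors, were not called, and the list's median normalized log2 ratio was 0.06.

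Genes that use the products went both ways. The list for polyunsaturated products includes the peroxisomal steps that complete docosahexaenoate synthesis. Of its 8 compared genes, 4 were called, all toward male liver, beside 7.21% of all compared genes. The median normalized log2 ratio of this list was 0.36. Scp2, a peroxisomal thiolase and sterol carrier, had log2 RPKM values of 10.22 and 8.11 (4.30-fold, adjusted p = 1.69e-27 in the authors' deposited table), and Acaa1b and Hsd17b4 were 1.31-fold and 1.30-fold higher on the male side of the authors' deposited table (adjusted p = 0.0431 and 0.0437). In the list for very long chain products, 2 of 7 were called higher in female and 1 in male liver, beside 10.2% and 7.21% of all compared genes. Abcd2, a peroxisomal importer of very long chain and polyunsaturated acyl-CoA, had log2 RPKM values of 0.23 in male and 4.04 in female liver (14.6-fold, adjusted p = 1.73e-53 in the authors' deposited table). Cers6, a ceramide synthase listed as Lass6, differed by 2.24-fold toward female liver, and Abcd3, a relative of Abcd2, by 1.37-fold toward male liver, by the authors' deposited table (adjusted p = 1.08e-07 and 0.016).

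**Figure D5:**
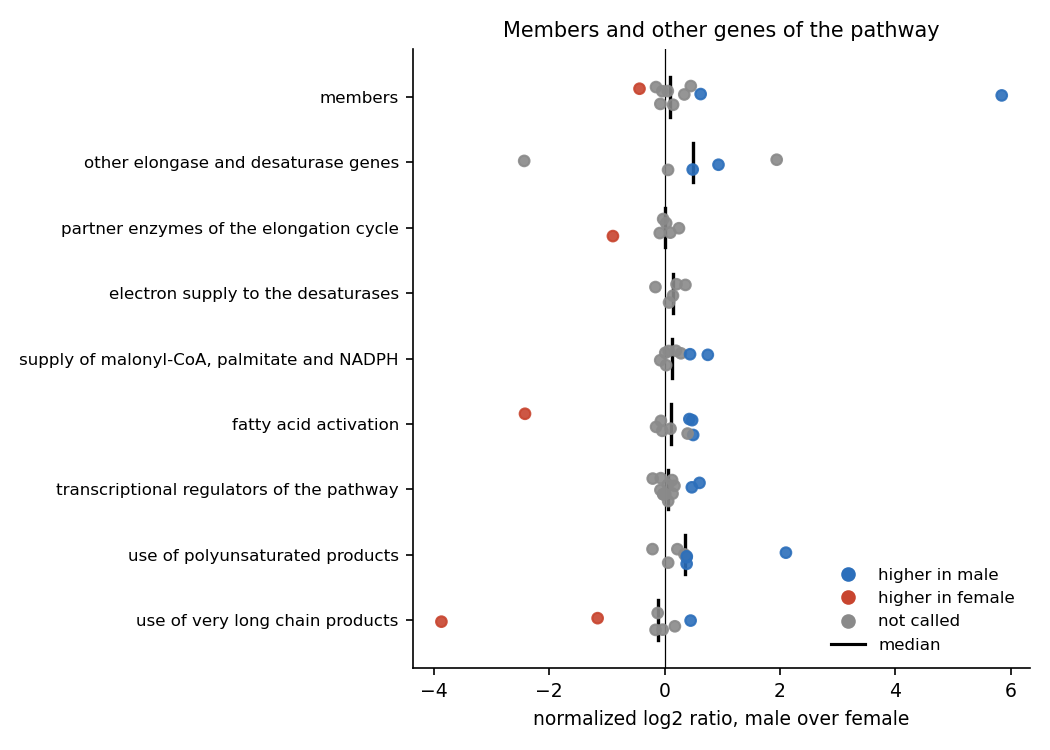
Normalized log2 ratio between male and female liver (positive where male is higher) for each compared gene of the 10 members and the 8 pathway lists, coloured by call, with the median of each list as a black bar. List medians lie between -0.12 and 0.49, and Elovl3 at 5.85 is the point farthest to the right.

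Hepatocyte markers were abundant, with a summed RPKM of 41948.5 in male and 58313 in female liver. Of 5, Alb was called higher in female (log2 RPKM 14.83 in male, 15.52 in female) and Apoa1 higher in male liver (12.68 and 12.09), and 3 were not called. Scd1 and Elovl3 are also expressed in fat, and of 5 adipocyte markers Plin1 and Lep had the floor value in each sex and Adipoq in male liver. Fabp4 was called higher in female liver (2.86 and 4.20), and Cidec (-0.95 and -1.66) was not called. The summed RPKM of the list was 7.93 in male and 18.9 in female liver, of which Fabp4 held 7.27 and 18.4. Kupffer cell markers summed to 132 and 167, with 3 of 5 called higher in female liver, and stellate cell markers to 38.8 and 56.4, with 3 of 5. Sinusoidal endothelial markers (124 and 134, none of 5 called), lymphocyte markers (5.27 and 5.98, 1 of 5 higher in female) and cholangiocyte markers (46.5 and 31.5, 1 of 5 called each way) differed less regularly. Spp1, called higher in male liver, held 43.9 and 27.9 of the cholangiocyte sums. Sox9, with an RPKM of 1.27 and 2.34, was called higher in female liver. Beside these counts, 7.21% of all compared genes were called toward male and 10.2% toward female liver. With 5 markers per list, the counts are a description only. In bulk liver, fewer cells of a type and less RNA per cell cannot be told apart, and the part of cell makeup in the ratios of the 10 genes was not tested. Implied depth was 11241800 reads for male and 14719700 for female liver, summed over the pools.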

How the data were processed

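Poly-A-enriched, strand-specific RNA-seq of 4 pools of CD-1 liver RNA (2 male, 2 female) was deposited as 1 table. Per the submitters' processing notes, Bowtie, edgeR and build mm9 were used, with no versions or roles; the counting and its use of strand are not given in the sources used here. Per the file headers, the deposited values are log2 RPKM per sex, a normalized log2 ratio of male over female, its linear ratio, a signed fold change (a score, negative where female is higher), the authors' adjusted p-value and classes at an adjusted p under 0.01. The planned count test could not be run, since pools are combined and no counts per library are in the table used, so the authors' adjusted p under 0.05 was taken with the direction of the normalized ratio, and no gene was tested anew.

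Genes at the floor in both sexes (6590, all with a deposited p of 0.026), above it in 1 sex with the ratio set to 1 (1460), or without a level or ratio (15) were not called, which left 13762. Implied reads take the added value as 1 read, depth from olfactory receptor genes at the floor, and lengths from GENCODE vM21 by RefSeq identifier; of 4668 floor genes with a length, 74.2% fit within 2%, so reads are approximate. Intervals are 95% and cover counting error only. Levels, sums and shares have no error. The scripts (Python 3.11.15, pandas 2.3.3, scipy 1.17.1) were tested on simulated data. Members and lists were chosen with earlier results of these data known. Named genes were the 10 members, up to 4 called genes per list by size of ratio (where fewer than 2 were called, the 2 of highest level as well), the nearest neighbours, and the 3 genes closest to Elovl3; others named, among them Elovl4, Alb, Apoa1 and the adipocyte markers, were chosen after their values were seen. Alternatives were an adjusted p under 0.01, a minimum level of 1 (log2 RPKM), a minimum of 2-fold, plain differences, centring on the median, and levels without the added value. The values of 1 gene that the rule names are not reported here.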

Additional observations from a re-analysis of the deposited data

How the results depend on the processing

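At an adjusted p under 0.01 the count of the 10 genes higher in female liver went from 1 to 0, since Fads1 has an adjusted p of 0.0205 in the authors' deposited table, where unadjusted p-values are not given; the count higher in male liver stayed at 2. With at least 2-fold required, 1 gene was higher in male (Elovl3) and 0 in female liver. The pathway lists had 14 genes higher in male liver at 0.05 and 4 at 0.01. The median normalized log2 ratio of the 10 genes, 0.10, was 0.056 over the 9 genes with a log2 RPKM of at least 1 and 0.1215 by plain differences. Of 29 recomputed ratios of single genes, 27 kept their direction, among them all 9 ratios of the called genes Elovl3, Scd1 and Fads1. The settings reuse the same levels, and the largest shift, 0.132 for Elovl6, is smaller in size than every called ratio. The called genes could therefore not reverse under these settings. Elovl6 went from -0.073 to 0.059 by plain differences and to 0.0588 after the added value was taken off. For Elovl2 that last value could not be computed. Ordering by the mean RPKM of both sexes kept most positions. No pool could be left out, and no paired analysis was possible because the table combines the pools of each sex. Of the 9 genes with implied reads, these were fewest for Fads3 (46 in male, 43 in female liver) and for Elovl3 in female liver (75).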
